A study of Mus musculus with 16 samples.

Results

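Epithelial cells hold to one another through adherens junctions, tight junctions and desmosomes, and polarity complexes keep their apical and basal surfaces apart. A set of 47 mouse genes of these structures, with keratins, membrane serine proteases and their inhibitors, and transcription and splicing factors that maintain the epithelial state, was followed in embryonic stem (ES) cells differentiating to definitive endoderm (DE), the germ layer that gives rise to gut. In the gastrulating embryo, DE precursors leave the epiblast through the primitive streak and enter an epithelial sheet, so the same lineage passes through a loss and a gain of epithelial character. Snail and Zeb family factors repress epithelial genes during epithelial-to-mesenchymal transition (EMT), and Ovol2 and Grhl2 are known to oppose them.

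The arrays compared Lhx1-null cultures (genotype Lhx1∆/∆, no functional copy of this LIM-homeodomain transcription factor) with wild-type cultures (Lhx1+/+) on days 5 and 6 of differentiation in Activin-A, with 4 cultures per group and 16 Illumina Mouse WG-6 v2 arrays in all. The methods describe 4 independent ES lines of each genotype, but which line gave which culture is not stated in the labels. All cultures received Activin-A, and none was left undifferentiated. Levels are given as normalised log2 intensity of the brightest probe of a gene, and a probe was above background where its detection p, the fraction of negative controls that reach its brightness, was under 0.01. Of the 47 genes, 46 have a probe in the platform annotation (77 probes) and 36 were above background on at least 4 arrays and entered the tests, among 10939 genes in all. The gene without a probe was Dsp (desmoplakin). Epcam, Cldn2, Cldn8, Marveld2, Jup, Dsc2 and Prkci were above background on 0 arrays by any probe, Pkp3 and Dlg1 on 1, and Cldn1 on 2, so that nothing is said here of their level. In particular the single Epcam probe gave no reading of this epithelial adhesion molecule.

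Between 10734 and 15453 of 45281 probes were above background per array. A pair of null cultures stood apart from the other 6. Null day 5 replicate 4 and null day 6 replicate 2 had Lhx1 at 8.15 and 9.76, against 13.10 to 14.49 in the other nulls and 14.34 to 14.88 in wild-type cultures. They also had the lowest mean of 12 measured DE markers, 8.75 and 9.23, against 10.36 to 11.25 in the other nulls and 11.46 to 12.48 in wild-type. Null day 6 replicates 3 and 4, numbered by title, are both described as replicate 2. Values without the pair that stood apart are given where the larger differences moved with it, and the counts of calls are given without either pair.

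At day 5, Ovol2 and Spint2 were lower in null cultures, and at day 6 Ovol2 and Spint1 were, by limma at a Benjamini-Hochberg adjusted p under 0.05 over all genes. These were 2 of 36 measured genes at day 5 and 2 of 36 at day 6, where 0.558% and 1.57% of all genes passed, and no measured gene of the set passed in the other direction. Same-numbered cultures of the genotypes deviated together weakly at day 5 (correlations of 0.139 to 0.36, 2 of 4 best with their own number), and no label pairs them. With the replicate number as a block within each day, Ovol2 passed in the limma fit at day 5 (adjusted p = 0.0269) and Spint2 did not (adjusted p = 0.0521). Below the threshold the set, chosen with earlier results of these data known, leaned to lower values. The log2 fold change (null over wild-type) was under 0 for 31 of 36 genes at day 5 and 30 of 36 at day 6, against 48% and 49.4% of all genes, and 15 and 18 had an unadjusted p under 0.05, against 11.9% and 13.9%. The median log2 fold change of the 36 was -0.58 at day 5 and -0.88 at day 6, against 0.01 and 0.00 for all genes, or -0.35 and -0.50 with genes that were below background in 1 group set to the bound that this allows. The measured median was -0.51 and -0.68 without the 2 null cultures that stood apart. Of the 36, 13 were above background on more wild-type than null arrays, against 4 on more null arrays. Some therefore entered the tests only through their wild-type level, among them Spint2, Ocln and Crb3, above background in no null culture. With detection required on at least 8 arrays, Ovol2 alone was called at day 5 and Ovol2 and Spint1 at day 6, where 0.729% and 1.45% of all genes were. The 17 genes above background on all 16 arrays had medians of -0.44 and -0.57, against 0.01 and 0.01 for the 7205 genes of the whole series that met the same condition.

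**Figure D1:**
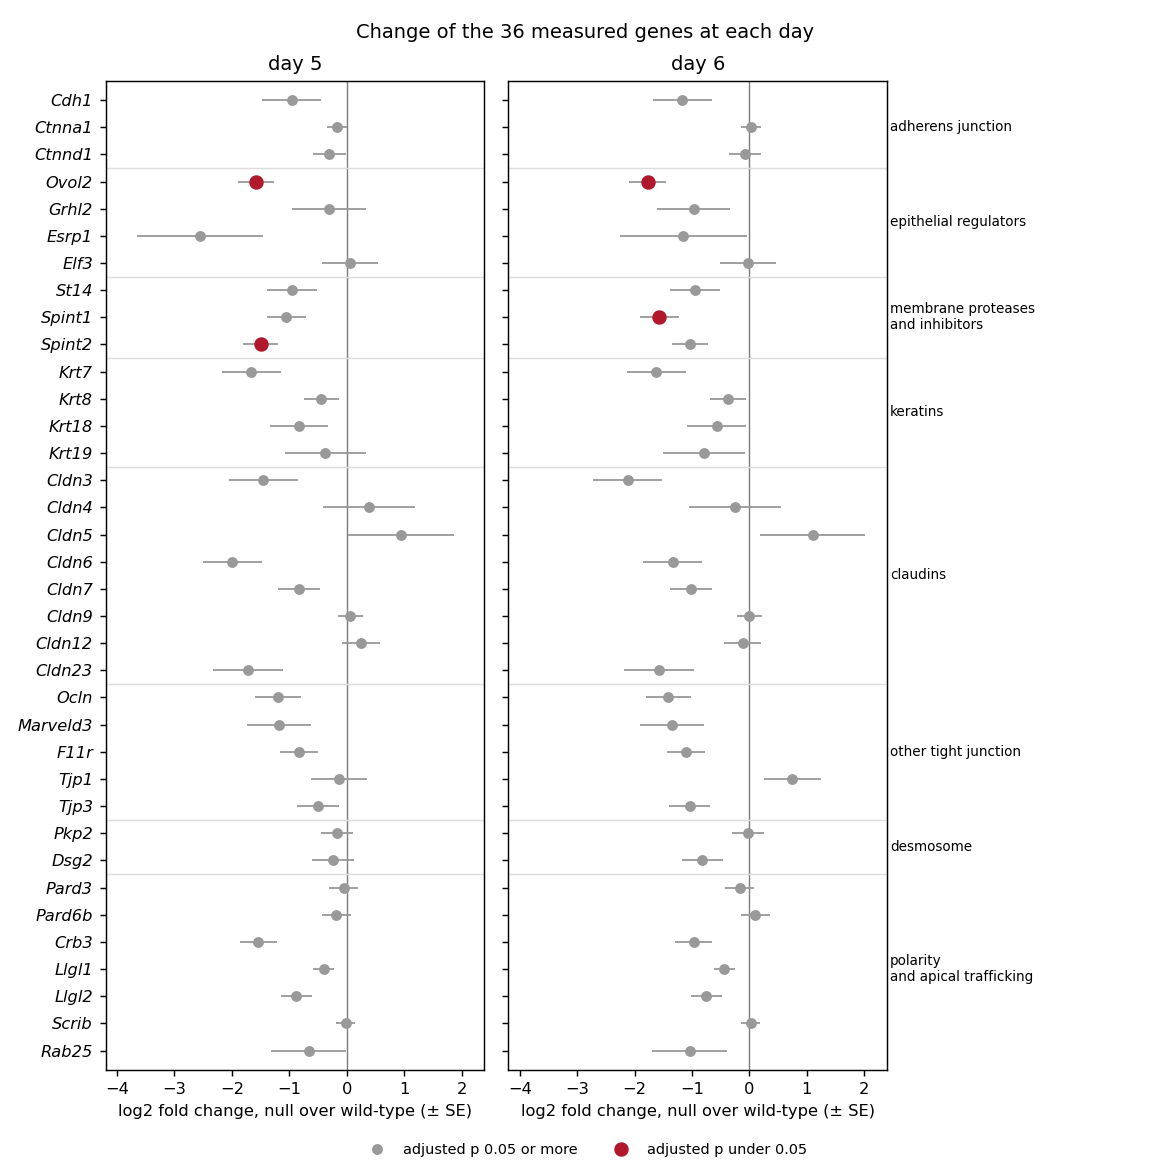
Log2 fold change, null over wild-type, of the 36 measured genes at day 5 (left) and day 6 (right), with horizontal bars for the standard error of the limma fit and red points for genes that passed an adjusted p under 0.05 over all genes. Most points lie left of 0, the genes of 1 role differ widely among themselves, and Ovol2 is the gene marked at both days.

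Among the regulators of the epithelial state, Ovol2 showed the clearest difference. It encodes a zinc-finger repressor known to hold back Zeb1 and other EMT genes. Ovol2 read 8.60, 8.67, 8.92 and 8.06 in null cultures at day 5, against 9.51, 10.46, 10.18 and 10.41 in wild-type. The null cultures of day 6 read 9.27, 8.11, 8.65 and 8.97, against 11.04, 9.74, 10.56 and 10.72 in wild-type. Every null culture lay below every wild-type culture at both days. Ovol2 was thus 2.99-fold lower at day 5 (log2 fold change -1.58, SE 0.32, adjusted p = 0.0436) and 3.40-fold lower at day 6 (-1.77, SE 0.32, adjusted p = 0.0141). The lowest values came from the 2 null cultures that stood apart, and without them Ovol2 differed by -1.41 (adjusted p = 0.0599) at day 5 and -1.55 (adjusted p = 0.025) at day 6. A second Ovol2 probe, above background on 4 arrays, gave -0.74 (SE 0.67) and -0.27 (SE 0.67) and did not pass, and with the mean of both probes Ovol2 did not pass at either day (adjusted p = 0.268 and 0.287).

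Esrp1, a splicing factor that maintains epithelial isoforms, had large differences between means but no separation of the groups. At day 5 it read 9.08, 12.25, 9.02 and 6.14 in null cultures, the last below background, against 12.42, 12.42, 12.40 and 9.45 in wild-type. Readings at day 6 were 12.15, 9.55, 11.44 and 9.74 in null cultures, against 12.49, 10.02, 12.36 and 12.60 in wild-type. Most cultures lay either near 12.4 or near 9 to 10, and both genotypes had cultures at each level at both days. Neither the day 5 log2 fold change of -2.55 (SE 1.10, adjusted p = 0.37) nor the -1.15 of day 6 (SE 1.10, adjusted p = 0.749) passed. The day 5 value was -1.55 without null replicate 4, whose reading was below background, and -3.59 without null replicate 2, and the day 6 value was -0.76 without null replicate 2 and -1.76 without wild-type replicate 2. Grhl2, a transcription factor of junction genes, differed by -0.31 at day 5 and -0.97 at day 6 (SE 0.64 each, adjusted p = 0.9 and 0.567), or by -0.05 and -0.64 without the 2 null cultures that stood apart. Elf3, an epithelial Ets factor, differed by 0.06 and -0.02 (SE 0.49 each), or by 0.39 and 0.37 without them.

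**Figure D2:**
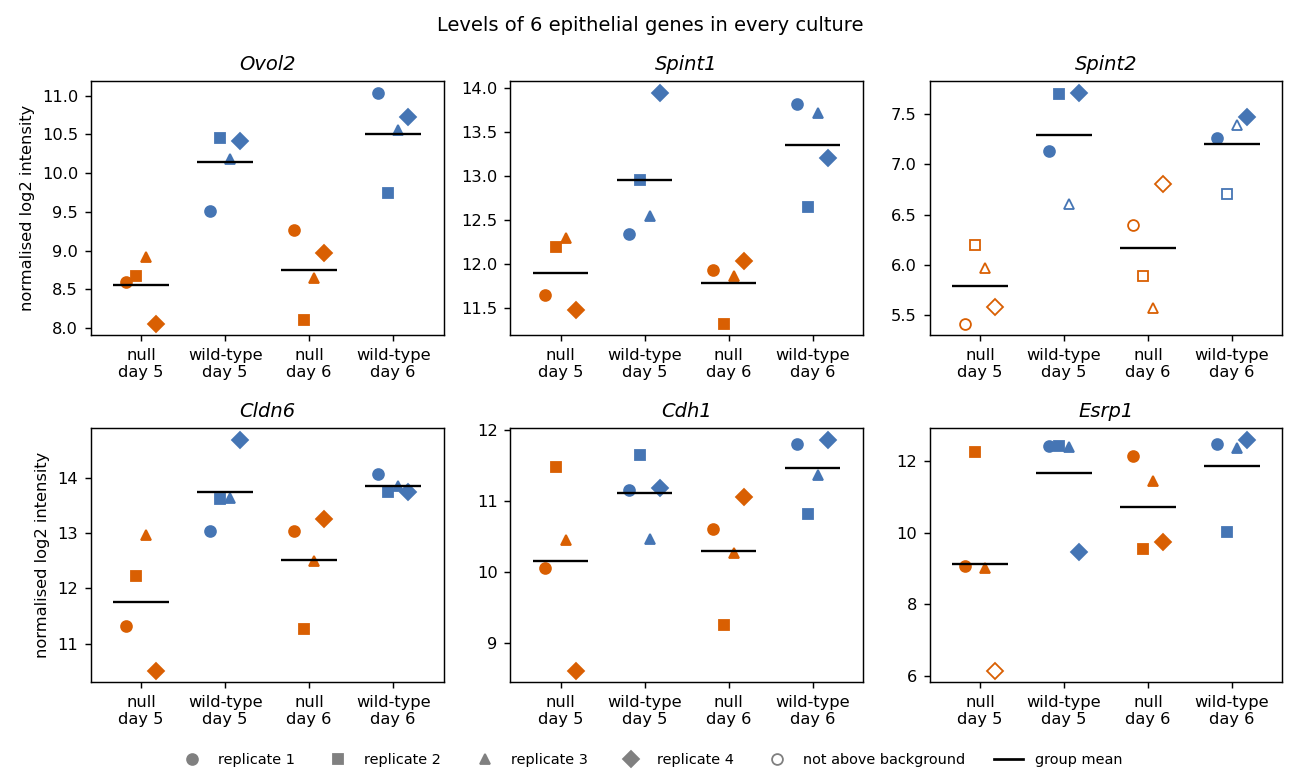
Normalised log2 intensity of 6 epithelial genes in every culture, null left of wild-type at each day, with 1 symbol per replicate number, horizontal lines for group means and open symbols where the probe was not above background. Ovol2 separates the genotypes at both days, Spint2 is open in all 8 null cultures, and Esrp1 falls near 12.4 or well below it in cultures of both genotypes.

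The matriptase system, a membrane serine protease and its Kunitz-type inhibitors that are needed for epithelial integrity, gave negative differences in all 3 of its measured genes. Spint1, which encodes the inhibitor HAI-1, read 11.64, 12.19, 12.29 and 11.48 in null cultures at day 5, against 12.34, 12.95, 12.55 and 13.95 in wild-type. Day 6 readings were 11.93, 11.32, 11.86 and 12.03 in null cultures, against 13.82, 12.65, 13.72 and 13.20 in wild-type. The groups did not overlap at either day, although the gap at day 5 was narrow. Spint1 differed by -1.05 (SE 0.34, adjusted p = 0.21) at day 5 and by -1.57 (SE 0.34, adjusted p = 0.036, 2.96-fold lower) at day 6. Its second probe gave -1.55 and -1.68, and at day 6 both probes passed when every probe was tested on its own (adjusted p = 0.0385 and 0.0345). Without the 2 null cultures that stood apart, Spint1 differed by -1.41 at day 6 (adjusted p = 0.0746).

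Spint2, which encodes the related inhibitor HAI-2, was dim. It read 5.42, 6.20, 5.97 and 5.58 in null cultures at day 5, none above background, against 7.13, 7.70, 6.61 and 7.71 in wild-type, of which 3 were above background. At day 6 it read 6.40, 5.89, 5.57 and 6.80 in null cultures, again none above background, against 7.26, 6.70, 7.39 and 7.47 in wild-type, with 2 above background. The groups were apart at day 5 and overlapped at day 6. The measured difference on the log2 scale was -1.50 (SE 0.31, adjusted p = 0.0459) at day 5 and -1.04 (SE 0.31, adjusted p = 0.11) at day 6. Since the null cultures have only an upper limit, the data show Spint2 at least 1.02-fold lower at day 5, set against the dimmest probe above background on each null array. Without background correction its day 5 difference was -0.64 and did not pass (adjusted p = 0.0702), nor did it with the 2 null cultures left out (adjusted p = 0.0857) or with the replicate block within each day (adjusted p = 0.0521). St14, the protease matriptase itself, averaged 8.05 ± 1.05 in null and 8.99 ± 0.30 in wild-type cultures at day 5 and 8.32 ± 0.62 and 9.27 ± 0.28 at day 6, with the groups apart at day 6 only (log2 fold change -0.95, adjusted p = 0.331). The differences of St14 were -0.54 and -0.64 without the 2 null cultures that stood apart.

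The sequence before the transcription start, from RefSeq (GRCm38.p6), was used here for 31 of the 47 genes. They were searched for the E-box letters CACCTG or CAGGTG, the same site read on either strand, which Snail and Zeb factors are known to bind. Of these 31 genes, 16 held the letters within 250 bases before a start, or 51.6%, against 19.4% of 27025 genes with such a sequence. Counted by start sites the share was 18 of 43, or 41.9%, against 17.2% of 32851. The 16 were Epcam, Elf3, Spint2, Krt7, Krt8, Krt18, Cldn4, Cldn6, Cldn7, Ocln, F11r, Tjp3, Pard3, Pard6b, Crb3 and Rab25. The Ovol site CCGTTA, or TAACGG on the other strand, was present in Crb3 alone (3.23% of the 31, against 2.52% of all genes), and the Grhl site AACCGGTT in none. No sequence was read for Grhl2, Pkp2, Pkp3, Krt19, Cldn23, Marveld3, Cldn9, Ctnna1, Dsg2, Scrib, Dsc2, Cldn8, Llgl2, Cdh1, St14 or Esrp1. These letters describe the windows and do not show that a factor was bound.

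The 250 bases before the start are shown for the 3 genes that passed a test and for Cldn6, the claudin with the brightest probe, with E-box letters in capitals. Spint2 has the letters at 3 places within 74 bases of the start, Cldn6 at 1 place, and Ovol2 and Spint1 at none.
Ovol2, chr2:144331363-144331612, minus strand: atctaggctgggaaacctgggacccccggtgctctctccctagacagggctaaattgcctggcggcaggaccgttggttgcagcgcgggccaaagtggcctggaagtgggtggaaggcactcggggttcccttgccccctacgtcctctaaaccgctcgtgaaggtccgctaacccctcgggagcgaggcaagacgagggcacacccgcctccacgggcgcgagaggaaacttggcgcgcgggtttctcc
Spint1, chr2:119237110-119237359, plus strand: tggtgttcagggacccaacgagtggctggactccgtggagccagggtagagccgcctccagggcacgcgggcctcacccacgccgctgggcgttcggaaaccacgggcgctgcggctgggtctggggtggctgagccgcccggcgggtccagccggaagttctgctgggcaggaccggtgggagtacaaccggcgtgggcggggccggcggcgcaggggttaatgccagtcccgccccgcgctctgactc
Spint2, chr7:29281978-29282227, minus strand: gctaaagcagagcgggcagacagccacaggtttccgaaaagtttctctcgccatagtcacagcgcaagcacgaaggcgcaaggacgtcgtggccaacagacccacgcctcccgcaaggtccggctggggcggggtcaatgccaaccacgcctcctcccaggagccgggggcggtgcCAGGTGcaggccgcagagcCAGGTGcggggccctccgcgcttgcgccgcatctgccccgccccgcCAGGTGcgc
Cldn6, chr17:23679115-23679364, plus strand: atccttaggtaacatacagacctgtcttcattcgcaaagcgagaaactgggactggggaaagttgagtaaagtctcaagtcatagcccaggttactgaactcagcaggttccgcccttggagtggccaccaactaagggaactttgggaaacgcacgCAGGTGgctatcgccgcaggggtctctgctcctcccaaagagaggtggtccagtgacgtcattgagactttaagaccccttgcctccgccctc

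Shorter stretches around an E-box are shown for 6 further genes that hold the letters, across keratins, tight junctions and polarity, to give its surroundings. Rab25 carries the letters in both orientations within a few bases of each other.
Krt7, chr15:101412339-101412384, plus strand: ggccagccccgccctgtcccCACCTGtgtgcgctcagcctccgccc
Ocln, chr13:100552541-100552586, minus strand: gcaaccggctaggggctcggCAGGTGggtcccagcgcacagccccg
F11r, chr1:171437419-171437464, plus strand: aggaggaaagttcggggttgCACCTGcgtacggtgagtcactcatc
Tjp3, chr10:81291664-81291709, minus strand: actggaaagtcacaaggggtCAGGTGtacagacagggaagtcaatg
Crb3, chr17:57062174-57062200, plus strand: ccgcccctctcagccaggctCAGGTGc
Rab25, chr3:88548307-88548352, minus strand: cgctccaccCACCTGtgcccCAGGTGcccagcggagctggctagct
The 15 measured genes with the letters had a median log2 fold change of -0.83 at day 5 and -1.02 at day 6, with a range of -1.99 to 0.39 and -1.62 to 0.10. The 8 with a sequence but without the letters had medians of -0.35 and -0.28, and 13 with no sequence read had -0.37 and -0.82. The ranges overlapped widely, and the 8 include Ovol2 and Spint1. These medians use measured differences, also for genes with all null cultures of a day below background, where only a bound is known. Among the 15 these are Spint2, Ocln and Crb3 at both days and Tjp3 at day 6, and among the 8 Cldn3 at day 6. Whether the letters bear on the differences was not tested.

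The claudins, the transmembrane proteins that set the permeability of tight junctions, differed among themselves in sign and size. Cldn6, a claudin known from early endoderm and pluripotent cells, had the brightest probe of the family. It read 11.32, 12.22, 12.96 and 10.51 in null cultures at day 5, against 13.03, 13.62, 13.63 and 14.69 in wild-type. The null cultures of day 6 read 13.03, 11.27, 12.50 and 13.26, against 14.07, 13.75, 13.86 and 13.75 in wild-type. The groups did not overlap at either day, but the nulls spread widely. Cldn6 differed by -1.99 (SE 0.51, adjusted p = 0.0979) at day 5 and by -1.34 (SE 0.51, adjusted p = 0.225) at day 6, neither of which passed. Without the 2 null cultures that stood apart these values were -1.57 (adjusted p = 0.101) and -0.93 (adjusted p = 0.314). With null replicate 3 alone left out, Cldn6 passed at day 5 (-2.39, adjusted p = 0.0486).

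Cldn3, a sealing claudin, was undetected in null cultures at day 6. Its readings were 6.76, 6.23, 7.08 and 6.29 in null cultures, none above background, against 9.04, 8.08, 8.74 and 8.98 in wild-type, all above background, which makes it at least 2.90-fold lower (adjusted p = 0.0938). Cldn3 was called at day 6 with the arrays of day 6 alone and with array weights, where 1.5% and 10.5% of all genes were. At day 5 it overlapped between the genotypes (-1.45, adjusted p = 0.345). Cldn23 was below background in all 4 null cultures at day 5 and at least 1.25-fold lower there (adjusted p = 0.254), and differed by -1.57 at day 6 (adjusted p = 0.237). Cldn7 differed by -0.83 and -1.02 (adjusted p = 0.398 and 0.206), or by -0.49 and -0.83 without the 2 null cultures that stood apart. Cldn4, Cldn9 and Cldn12 differed by 0.39, 0.06 and 0.25 at day 5 and by -0.25, 0.00 and -0.12 at day 6. Cldn5, the claudin of endothelium, had positive differences of 0.95 and 1.10 (SE 0.92 each, adjusted p = 0.753 and 0.685). These came from the 2 null cultures that stood apart, where it read 10.33 and 9.97, against 5.88 to 7.52 in the other nulls and 5.75 to 8.50 in wild-type, and without them the differences were 0.08 and 0.29. Of 11 blood and endothelial markers 4 were measured, while Pecam1, Cdh5, Tie1 and Tal1 were not, and the mean of the 4 was 8.67 and 9.91 in these 2 cultures, against 7.82 to 8.92 in the other nulls and 6.86 to 8.51 in wild-type. The part of such cells in the Cldn5 values was not tested.

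Of the other tight junction genes, F11r, which encodes the junctional adhesion molecule JAM-A, had the brightest probe. At day 5 it read 7.93, 9.20, 9.18 and 8.36 in null cultures, against 9.44, 9.78, 9.35 and 9.43 in wild-type. Readings at day 6 were 9.11, 8.83, 8.69 and 8.87 in null cultures, against 10.61, 8.94, 10.27 and 10.09 in wild-type. The groups were apart at day 5 and overlapped at day 6 through 1 wild-type culture, replicate 2. The differences of -0.83 (SE 0.33, adjusted p = 0.324) and -1.10 (SE 0.33, adjusted p = 0.121) did not pass, and without that wild-type culture the day 6 difference was -1.45 (adjusted p = 0.0141). Ocln, the tetraspan protein occludin, was below background in all 8 null cultures, so that it was at least 1.24-fold lower at day 5 (adjusted p = 0.213) and at least 1.27-fold lower at day 6 (adjusted p = 0.0909). Marveld3, of the same family, differed by -1.18 at day 5, and Tjp3, a scaffold protein, by -0.50. At day 6 both were below background in all 4 null cultures, where Marveld3 was at least 1.83-fold and Tjp3 at least 1.09-fold lower, and neither passed. Tjp1, the scaffold ZO-1, differed by -0.14 and 0.75 (adjusted p = 0.947 and 0.559). In number, 1 of these 5 genes lay below wild-type in every null culture at day 5 and 2 did at day 6, against 3.43% and 5.67% of all genes. The 2 of day 6, Ocln and Tjp3, were below background in all 4 null cultures of that day.

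At the adherens junction, Cdh1, which encodes E-cadherin, read 10.06, 11.47, 10.45 and 8.61 in null cultures at day 5, against 11.15, 11.64, 10.46 and 11.18 in wild-type. Day 6 readings were 10.61, 9.25, 10.27 and 11.06 in null cultures, against 11.80, 10.82, 11.37 and 11.86 in wild-type. The groups overlapped at both days, and the lowest values were again those of the 2 null cultures that stood apart. The log2 fold change was -0.96 (SE 0.51, adjusted p = 0.493) at day 5 and -1.17 (SE 0.51, adjusted p = 0.317) at day 6, and without these cultures it was -0.45 and -0.82. Ctnna1 encodes alpha-catenin, which ties the cadherin complex to actin. It read 13.98, 13.89, 14.01 and 14.39 in null cultures at day 5, against 13.87, 14.07, 14.37 and 14.64 in wild-type. The null cultures of day 6 read 14.14, 14.35, 14.28 and 14.16, against 14.12, 14.23, 14.35 and 14.11 in wild-type. All 16 readings lay within 1 log2 unit, and the differences were -0.17 and 0.03 (SE 0.17 each). Ctnnd1, the p120 catenin, differed by -0.30 and -0.08 (SE 0.28 each).

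Keratins 8 and 18 form the first intermediate filaments of simple epithelia. Krt8 read 12.54, 12.32, 12.46 and 13.16 in null cultures at day 5, against 12.15, 13.70, 12.95 and 13.45 in wild-type. Readings at day 6 were 13.49, 13.56, 13.07 and 13.86 in null cultures, against 14.13, 13.31, 14.06 and 13.95 in wild-type. The genotypes overlapped at both days, with differences of -0.44 and -0.37 (SE 0.31 each, adjusted p = 0.63 and 0.692). Krt18 differed by -0.83 and -0.57 and Krt19 by -0.37 and -0.79, none past the threshold. Krt7 had the larger difference, -1.66 (SE 0.52, adjusted p = 0.191) and -1.62 (SE 0.52, adjusted p = 0.148). At day 6 Krt7 lay between 5.96 and 8.23 in null cultures, below the 8.97 to 9.40 of wild-type. The 2 null cultures that stood apart were not low in every keratin. Null day 5 replicate 4 had the lowest Krt7 of its group, 6.14, and the highest Krt19, 10.61, against 7.06 to 8.08 in the other nulls of that day. Without the 2 cultures the day 6 difference of Krt7 was -1.08 and the day 5 difference of Krt19 was -1.17 (adjusted p = 0.19 and 0.373).

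The desmosome was represented by 2 measured genes of 6. Pkp2, a plakophilin that anchors desmosomal cadherins, read 11.06, 11.69, 11.72 and 12.46 in null cultures at day 5, against 11.66, 11.88, 11.80 and 12.27 in wild-type. Day 6 readings were 11.61, 12.54, 11.56 and 11.40 in null cultures, against 11.82, 11.99, 11.74 and 11.64 in wild-type. Here the 2 null cultures that stood apart were the highest of all, so that leaving them out moved the difference to -0.42 at day 5 and -0.28 at day 6 from -0.17 and -0.02, with no call in either fit. Its 3 probes gave -0.17 to -0.05 at day 5 and -0.12 to -0.02 at day 6. Dsg2, a desmosomal cadherin, differed by -0.24 and -0.82 (SE 0.36 each, adjusted p = 0.856 and 0.32).

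Among polarity genes, differences near 0 stood beside larger ones. Scrib, Pard3 and Pard6b, subunits of the Scribble and Par complexes, differed by -0.02, -0.05 and -0.18 at day 5. At day 6 they differed by 0.02, -0.17 and 0.10 (SE 0.17 to 0.25 at both days). The 2 other measured Pard3 probes, nearly as bright, gave -0.65 and -0.45 at day 5 (SE 0.50 and 0.32). They gave -0.27 and -0.52 at day 6, and neither passed. Llgl1, a Lethal giant larvae homologue with the brightest probe of this group, read 12.88, 12.40, 13.13 and 13.27 in null cultures at day 5, against 13.29, 13.23, 13.47 and 13.28 in wild-type. The null cultures of day 6 read 12.59, 13.09, 12.79 and 12.95, against 13.48, 13.06, 13.20 and 13.43 in wild-type. The groups overlapped at both days through single cultures, and the differences were small, -0.40 and -0.44 (SE 0.18 each, adjusted p = 0.407 and 0.28). Its paralogue Llgl2 differed by -0.88 and -0.75 (adjusted p = 0.182 and 0.197). Crb3, the Crumbs protein of the apical membrane, came nearest to the threshold of the genes that missed it. It read 5.37, 6.37, 5.94 and 6.17 in null cultures at day 5, none above background, against 7.33, 6.95, 7.92 and 7.81 in wild-type, of which 2 were above background (difference -1.54, SE 0.32, adjusted p = 0.0504; at least 1.18-fold lower). At day 6 the nulls were again all below background, and Crb3 was at least 1.24-fold lower (adjusted p = 0.164). Rab25, a GTPase of apical recycling, differed by -0.66 and -1.04 with wide spread (SE 0.65 each), or by -0.36 and -0.53 without the 2 null cultures that stood apart.

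Every null culture lay below every wild-type culture for 7 of the 36 genes at day 5, where 3.43% of all genes did so, and for 9 at day 6, where 5.67% did. For 3 genes, Ovol2, Spint1 and Cldn6, this held at both days, against 1.6% of all genes. Some of these genes entered the tests mostly through their wild-type level. Among the 17 genes above background on all 16 arrays the counts were 5 at day 5 (Ovol2, Spint1, Cldn6, F11r and Llgl2) and 3 at day 6 and at both days (Ovol2, Spint1 and Cldn6), against 2.9%, 5.41% and 1.4% of the 7205 genes that met the same condition. Every null culture lay above every wild-type culture for 0 genes of the set, against 2.08% and 3.46% of all genes. By role, the medians of the log2 fold changes at day 5 and day 6 were lowest for the protease group (-1.05 and -1.04, 3 genes), the regulators (-0.94 and -1.06, 4 genes) and the other tight junction genes (-0.83 and -1.10, 5 genes), and nearest to 0 for the desmosome (-0.21 and -0.42, 2 genes) and the adherens junction (-0.30 and -0.08, 3 genes). These orders rest on few genes and were not tested. The medians use measured differences, also for genes with all null cultures of a day below background, where only a bound is known. In the lowest groups these are Spint2 and Ocln at both days and Marveld3 and Tjp3 at day 6, so these medians may lie too low. In 10 genes more than 1 probe was measured, and all probes of a gene lay on the same side of 0 for 9 of them at day 5 and 10 at day 6.

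Cultures of 1 genotype also differed among themselves. The median difference of the 36 genes from the wild-type mean of the same day was -1.23, -0.26, -0.38 and -0.94 in null cultures at day 5, against -0.25, 0.16, -0.23 and 0.37 in wild-type. At day 6 it was -0.64, -1.17, -0.83 and -0.40 in null cultures, against 0.24, -0.45, 0.12 and 0.07 in wild-type. The genotypes nearly met at day 5, where null replicate 2 was just below the lowest wild-type culture, and overlapped at day 6, where wild-type replicate 2 lay below the highest null culture. Wild-type day 6 replicate 2 had the lowest reading of its group in 25 of the 36 genes, and wild-type day 5 replicate 4 the highest in 20. The lowest median of day 5 was that of null replicate 1, which had an Lhx1 reading of 13.67, and not that of null replicate 4.

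**Figure D3:**
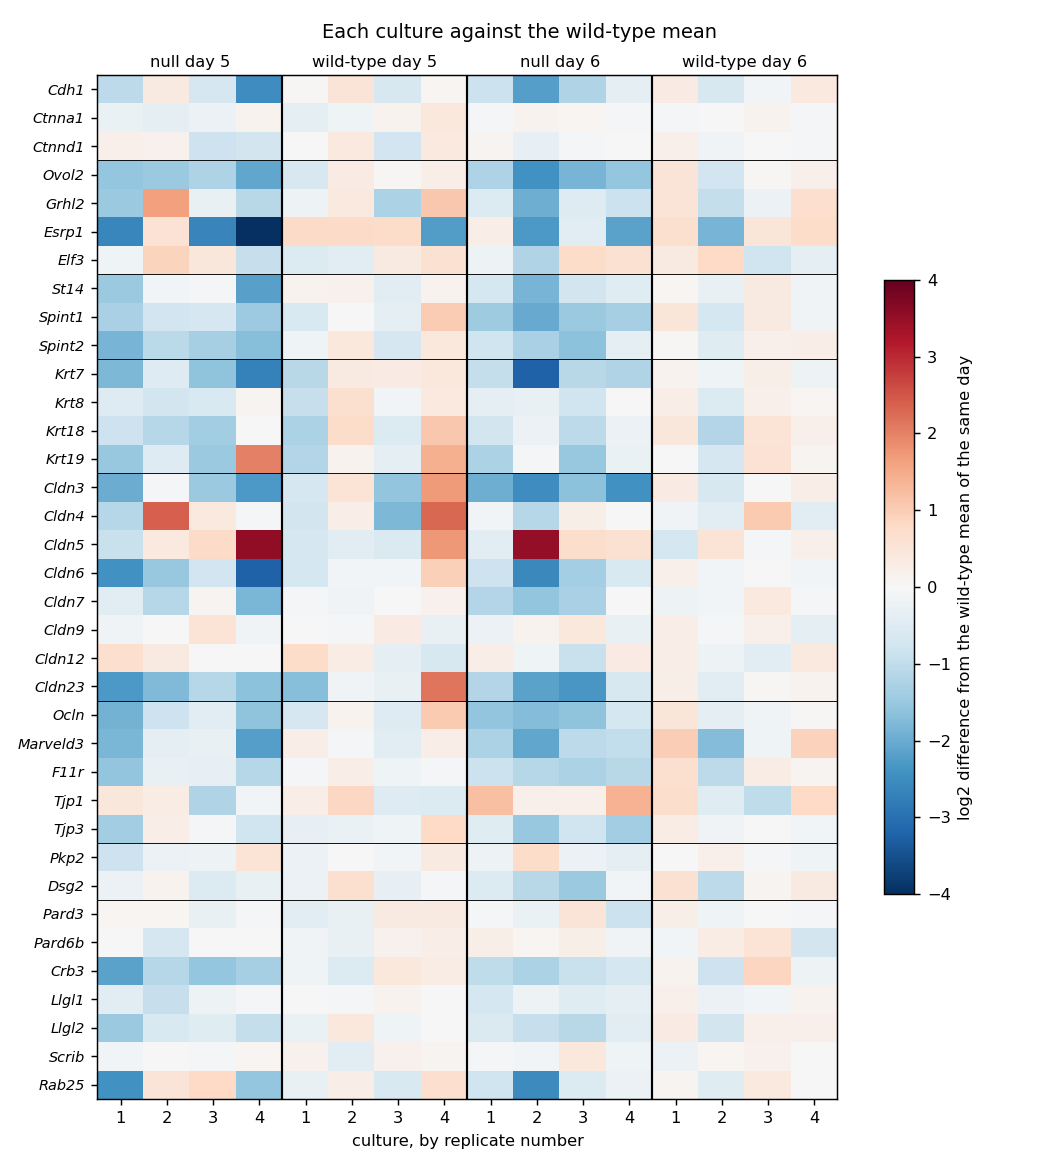
Log2 difference of each culture (columns, by replicate number within each group) from the wild-type mean of the same day for the 36 measured genes (rows, in the order of their roles), blue below and red above. The null columns are mostly blue in the regulators, proteases, Cldn3, Cldn6, Cldn23 and Ocln, while Cldn5 is deep red in the 2 null cultures that stood apart (replicate 4 of day 5, replicate 2 of day 6).

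No gene of the set passed in the comparison of the null effect between days, where 0 of all genes (0%) did by limma at an adjusted p under 0.05. At an unadjusted p under 0.05 there were 0 of 36, against 0.969% of all genes. From day to day no gene of the set passed in either genotype, nor did any of all genes (0%). At an unadjusted p under 0.05, 2 of 36 genes differed by day in null cultures, Krt8 (0.87, SE 0.31) and Krt18 (1.27, SE 0.51), against 4.07% of all genes, and 1 did in wild-type, Krt8 (0.80, SE 0.31), against 1.22%. The adjusted p of each was 1. Neither keratin therefore passed.

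The same genes were set beside other genes of their kind. These lists were chosen with earlier results of these data known, so their counts beside the shares of all genes are descriptions. Of 51 further junction and polarity genes, 27 were measured, and 1 was called lower at day 5, 1 lower at day 6 and 1 higher at day 6, against 0.558% and 1.57% of all genes in either direction at these days. Their medians were -0.19 and -0.26, and 8 had an unadjusted p under 0.05 at each day, against 11.9% and 13.9% of all genes. Shroom3, an actin-binding protein of apical constriction, was lower at both days, averaging 7.81 in null and 9.52 in wild-type cultures at day 5 (-1.71, adjusted p = 0.0427) and 8.20 and 9.75 at day 6 (-1.55, adjusted p = 0.036, or 0.0722 without the 2 null cultures that stood apart). Cgnl1, the junctional protein paracingulin, was higher at day 6, 11.59 in null and 9.58 in wild-type cultures (2.01, adjusted p = 0.00887). Of 13 further regulators of the epithelial state, 7 were measured and none was called at either day by limma. Their medians were -0.78 and -0.62, and 3 and 1 had an unadjusted p under 0.05, against 11.9% and 13.9% of all genes. The fit without the 2 null cultures that stood apart called Grhl3 lower at day 5 (-1.17, adjusted p = 0.0384), where 0.439% of all genes were called lower. Of 23 EMT factors and mesenchymal genes, 16 were measured, none was called at day 5 (7 at an unadjusted p under 0.05, against 11.9% of all genes) and 6 were called higher in nulls at day 6, against 0.576% of all genes, with medians of 0.82 and 1.57. The 2 null cultures that stood apart had the highest means of this list. Without them 5 were called higher at day 6 (Zeb2, Twist2, Fn1, Cdh11 and Cd44), against 0.823% of all genes. The medians were then 0.65 and 1.41. They include Fn1, encoding fibronectin (1.46, adjusted p = 0.0141), Cdh11, a mesenchymal cadherin below background in all 4 wild-type cultures (at least 3.26-fold higher, adjusted p = 0.028), Cd44, a hyaluronan receptor (3.33, adjusted p = 0.0358), and Pdgfra, a receptor of platelet-derived growth factor (1.59, adjusted p = 0.0425, or 0.0746 without the 2 cultures).

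The mean level of the 16 mesenchymal genes was 9.06 to 10.95 in null cultures and 8.66 to 9.20 in wild-type at day 5, and 9.69 to 10.97 and 8.56 to 9.15 at day 6. The 11 measured mesoderm markers of 16 averaged 9.48 to 10.96 in null and 8.35 to 8.88 in wild-type cultures at day 5, and 10.01 to 10.58 and 8.15 to 8.68 at day 6. The ranges of the mesoderm list did not overlap between the genotypes at either day, and those of the mesenchymal list did at day 5 only. In RNA of whole cultures, fewer epithelial cells and less of these transcripts per cell cannot be told apart, and the part of other cell types in the differences was not tested.

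**Figure D4:**
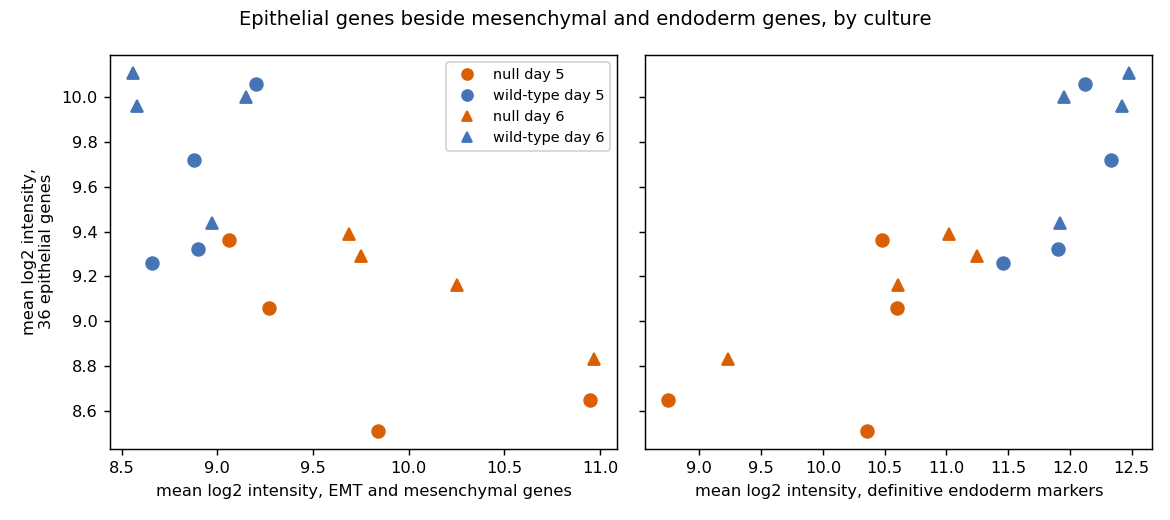
Mean log2 intensity of the 36 epithelial genes in each culture (vertical) against the mean of 16 EMT and mesenchymal genes (left) and of 12 definitive endoderm markers (right), 1 point per culture, circles for day 5 and triangles for day 6. Null cultures (orange) lie at 8.51 to 9.39 and wild-type cultures (blue) at 9.26 to 10.11 on the vertical axis, and the 2 null cultures that stood apart are at the far end of each horizontal axis.

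The genes most like Cdh1 over the 16 arrays, among 10938, were Pick1 (Pearson r = 0.97), Map7 (0.96) and Hdac6 (0.94). Those most like Ovol2 were Itpr3 (0.98), Cadps2 (0.97) and Slc7a8 (0.97). Spint1 was nearest to Rab15 and Ptprs (0.95 each) and to the unnamed probe ILMN_1233113 (0.95), and Spint2 to Sel1l3 (0.93), Vsig10 (0.92) and Rap1gap2 (0.92). The 16 arrays share the difference between genotypes and the normalisation, and these values are descriptions with no test.

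Dropping each culture in turn left 0 to 3 called genes at day 5 and 0 to 6 at day 6. Over all genes 0.101% to 1.63% and 0.302% to 3.08% were called in these fits. The folds moved less than the calls, with Ovol2 at -1.79 to -1.41 at day 5 and -2.02 to -1.55 at day 6, Spint1 at -1.80 to -1.41 at day 6 and Spint2 at -1.72 to -1.36 at day 5. With array weights, which give noisy arrays less influence, 1 gene was called at day 5 and 13 at day 6, where calls over all genes were 0.384% and 10.5%. Without the 2 null cultures that stood apart, 0 and 1 (Ovol2) were called (0.539% and 1.82% of all genes), and without the 2 null day 6 cultures of conflicting labels 1 (Spint2) and 0 (0.402% and 0.0457%). The directions of Ovol2, Spint1 and Spint2 were the same in every fit run.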

How the data were processed

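RNA of 16 cultures was hybridised to Illumina Mouse WG-6 v2 arrays. The authors deposited probe intensities without normalisation or background subtraction, a detection p-value beside each from GenomeStudio (version not stated), and intensities after rank invariant normalisation, which on each array are a linear rescaling (factor 0.781 to 1.22) and were used as an alternative. In R 4.3.3 with limma 3.58.1, background inferred from the detection p-values was removed by neqc (offset 16), followed by quantile normalisation of log2 values. A probe was used if 4 or more arrays had it above background at a detection p under 0.01 (15593 of 45281). The platform annotation gives 1 symbol to 34885 probes, several to 18 and none to 10378. The brightest kept probe stood for each symbol, and unnamed probes stood for themselves.

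A limma fit to the 4 groups gave all 5 comparisons, with Benjamini-Hochberg adjustment over 10939 genes. The script was tested on simulated data. Where a probe was below background on every array of a group, the fold is a bound: the other group's mean against, per array, the higher of the probe's signal and the lowest signal among probes above background. Precision is limited by 4 cultures per group and by signal over background. The 47 genes and all lists were chosen with earlier results of these data known. Every gene of the set is accounted for. Values by culture are given for called genes, Cdh1 and the gene of each role with the brightest probe, and for others, chosen after their values were seen, where a statement turns on them. Of the junction, regulator and mesenchymal lists, genes called with all cultures are named, up to 4 a list, and the Snail and Zeb factors are given beside these. The definitive endoderm list leaves out Krt19 and Cldn6, which belong to the set.

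Deviations from group means of same-numbered null and wild-type cultures correlated at 0.139 to 0.36 at day 5, all 4 over 0.1, so the numbers were taken to pair the cultures of that day, although no label says so and only 2 of 4 null cultures had their best match in the wild-type culture of that number. At day 6 the correlations were -0.0439 to 0.441 and pair nothing. Alternatives were other background, scaling, filter and probe rules, replicate blocks, each day alone, array weights, Eif2s3y intensity as a covariate and cultures left out.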

Additional observations from a re-analysis of the deposited data

Results flagged for a closer look

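In groups of 4 cultures, a reading was singled out where its gap to the nearest other reading exceeded Dixon's critical share of the group's range. Chance alone gives about 1 such reading in 20 groups. Among 44 groups (11 genes with values by culture, 4 groups each) this found 2, a count near that share. Both were Esrp1 in wild-type cultures. In wild-type day 5 replicate 4 Esrp1 read 9.45, against 12.40 to 12.42 in the other 3. In wild-type day 6 replicate 2 it read 10.02, against 12.36 to 12.60. These cultures did not share a general pattern, since wild-type day 5 replicate 4 had the highest reading of its group in 20 of 36 epithelial genes and wild-type day 6 replicate 2 the lowest in 25. Esrp1 has a single probe in the annotation, so no second reading exists for these values.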

How the results depend on the processing

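The count of called epithelial genes was 2 at each day, where 0.558% (day 5) and 1.57% (day 6) of all genes were called. At day 5 the count was 1 with no background correction, with rank invariant intensities, with detection on at least 8 arrays and with every kept probe on its own. It was also 1 with the mean of all kept probes, with array weights and without the 2 samples of conflicting labels. In these fits 0.384% to 0.729% of all genes were called. The count was 0 with no filter on dim probes, with the arrays of day 5 alone, without the 2 null cultures that stand apart and with Eif2s3y as a covariate. Those fits called 0.0548% to 0.539% of all genes. With the replicate block over both days the count was 0 (0.128% of all genes), and with the replicate block within each day 1 (0.658%). At day 6 the count was 1 with no filter, with the mean of all kept probes and with the replicate block over both days or within each day. It was also 1 without the 2 null cultures that stand apart, and these fits called 0.278% to 1.82% of all genes. It was 0 without the 2 samples of conflicting labels (0.0457%) and with Eif2s3y as a covariate (0.485%). With the arrays of day 6 alone it was 3 (Ovol2, Spint1 and Cldn3), where 1.5% of all genes were called. With array weights it was 13 (1153 of all genes, or 10.5%, against 172 in the reported fit). Leaving out 1 culture gave 0 to 3 at day 5 and 0 to 6 at day 6. The share called over all genes moved as well, from 0.101% to 1.63% at day 5 and from 0.302% to 3.08% at day 6. The 6 came without wild-type day 6 replicate 2, where this share was 3.08%. No other comparison gave a call under any alternative.

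Ovol2 lost its day 5 call without any 1 of 10 of the 16 cultures (adjusted p 0.0146 to 0.145 over all 16) and its day 6 call without wild-type day 6 replicates 1 or 4 (0.00494 to 0.0598). Spint1 at day 6 lost it without 8 cultures, including each null culture of that day (0.0147 to 0.138), and Spint2 at day 5 without 11 (0.0333 to 0.151). Some of the day 5 calls were lost by leaving out a day 6 culture, with no change in the fold. With the replicate block within each day Spint1 missed at day 6 (adjusted p = 0.0589), where the numbers pair nothing. The cause of these changes was not tested. No named gene that was called changed direction. Dim genes are limited by background, where null cultures have only upper limits for Spint2, Ocln and Crb3 at both days, Cldn23 at day 5, and Cldn3, Marveld3 and Tjp3 at day 6.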

Other observations

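The pluripotency list, of which 9 of 10 genes were measured, was highest in null day 5 replicate 2, at a mean of 12.34, against 9.14 to 10.54 in the other nulls and 8.57 to 10.08 in wild-type cultures of that day. The same culture had the highest null reading of day 5 in 12 of 36 epithelial genes, among them Cdh1 (11.47), Esrp1 (12.25) and Cldn4 (10.93). Null day 5 replicate 3, with a pluripotency mean of 10.54, was the highest in as many genes, 12 of 36. The lists were chosen with earlier results of these data known, so their counts beside the shares of all genes are descriptions. Of the mesoderm markers, 5 of 11 measured were called higher in null cultures at day 6 and 1 at day 5, where 0.576% and 0.064% of all genes were. Without the 2 null cultures that stood apart these counts were 4 at day 6 and 0 at day 5. That fit called 0.823% of all genes higher at day 6 and 11 of 10939 genes higher at day 5. Of the 12 measured DE markers, 2 were called lower in null cultures at each day, where 0.494% (day 5) and 0.996% (day 6) of all genes were. Without those cultures 3 were called lower at each day, where 0.439% of all genes (day 5) and 109 of 10939 (day 6) were. Of the visceral endoderm, blood and endothelial, pluripotency and neural lists, with 9, 4, 9 and 1 measured genes, none was called at either day by limma. At an unadjusted p under 0.05 there were 0, 1, 0 and 0 at day 5 and 1, 1, 1 and 0 at day 6. Of all genes 11.9% (day 5) and 13.9% (day 6) had such a p.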
